A study of Mus musculus with 2 samples.

Results

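Mitochondria-rich barcodes with many genes were the deposited droplet barcodes that held at least 500 detected genes and drew 20 to 50% of their molecules from the mitochondrial genome. There were 1343 of them among 6696 deposited barcodes. The KO library held 1145 and the WT library 198. A filter on mitochondrial share would usually discard such barcodes, and the question here was which duct, acinar or other cells of the gland they came from. Clustered together with the other barcodes, most of them fell in clusters of the granular convoluted tubule or of ionocytes in both libraries, and in the KO library also in 2 clusters that no marker set named. Clustered by themselves, fewer did.

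The study profiled the whole salivary gland (titled SMG) of adult mice, 12 weeks of age, on the 10x Genomics Chromium platform, which tags the 3′ ends of transcripts in droplets. There was 1 library from p63 KO material and 1 from p63 wild-type (WT) material. The labels do not say how, when or in which cells p63 was removed, nor whether glands were pooled. They call the source epithelial progenitor cells, yet the dissociated material was the whole gland, and endothelial-, immune- and fibroblast-like barcodes were present. With 1 library per genotype, genotype, animal and library cannot be told apart. No test between libraries or groups of cells was possible, so every interval below is a 95% interval that covers counting error only.

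Mitochondria carry their own small genome, which encodes core subunits of the respiratory chain and of ATP synthase, while most other subunits come from nuclear genes. In rodent submandibular glands, acinar cells make the primary saliva, which passes intercalated, granular convoluted and striated ducts before it reaches the excretory ducts. Granular convoluted tubules store kallikreins and the growth factor EGF, and striated duct cells are known for basal infoldings packed with mitochondria that power ion transport. Ionocytes are scattered duct cells marked by the transcription factors Foxi1 and Ascl3.

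Mitochondria-rich barcodes made up 24.2% of the KO library (1145 of 4726, exact binomial interval 23.0 to 25.5%) and 10.1% of the WT library (198 of 1970, 8.76 to 11.5%). The KO library was deposited down to 1076 molecules (unique molecular identifiers, UMIs) per barcode and the WT library down to 2175. Among barcodes with at least 2175 UMIs, the shares were 31.8% (671 of 2110, 29.8 to 33.8%) in KO and 10.1% in WT, so the KO share was the higher under either lower limit. The low-mitochondrial barcodes they are set against here, which met the same gene limit but lay below 20%, numbered 2368 in KO and 1605 in WT. The rest of the libraries had over 50% mitochondrial UMIs or fewer than 500 genes, and they were not used further.

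In KO the mitochondria-rich barcodes held a median of 2319 UMIs, of which 702 were mitochondrial and 1572 were not, with 813 genes, against 2109 UMIs, 162 and 1894.5, with 895.5 genes, in low-mitochondrial barcodes. In WT the medians were 2524 UMIs, 744.5 mitochondrial and 1843 other, with 912 genes, against 3447, 233 and 3220, with 1232 genes. The barcodes of interest thus held more mitochondrial and fewer other UMIs than the rest of their library. The mitochondrial share chose them and is given as a description. Its median was 29.7% in KO members and 27.5% in WT members, against 6.69% and 5.17% in the low-mitochondrial barcodes of the same libraries. The share had no gap at the lower limit: within 1 percentage point of 20%, 81 KO barcodes lay inside and 70 outside, and 19 WT barcodes lay inside and 24 outside. The nearest KO barcode inside had 20.0102% and the nearest outside 19.9838%.

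Trp63, the gene that encodes p63 and is known from basal and myoepithelial cells, had 0 UMIs in the mitochondria-rich KO barcodes and 4 UMIs in the mitochondria-rich WT barcodes. In low-mitochondrial barcodes it had 20 UMIs in KO, or 3.23 CPM (1.97 to 4.98), against 149 in WT, or 20.4 CPM (17.2 to 23.9). CPM here are the UMIs of a gene scaled to 1000000 non-mitochondrial UMIs. The direction was that of the labels, although the labels do not give the deleted part of the gene. The libraries shared 11 barcode sequences, and leaving these out left every share of the main classes inside its interval. No doublet caller was run.

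Of the mitochondrial transcripts, mt-Atp6, mt-Co3, mt-Co1 and mt-Cytb, which encode an ATP synthase subunit, 2 subunits of cytochrome c oxidase and cytochrome b, supplied most UMIs. mt-Co1 (chromosome M, 5328 to 6872, GRCm38) made up 17.9% of mitochondrial UMIs in mitochondria-rich KO barcodes, against 16.4% in low-mitochondrial KO barcodes. In WT it made up 17.2% and 16.2%. mt-Nd4l (chromosome M, 9877 to 10173), which encodes a small complex I subunit, made up 0.98% and 0.76% in KO and 0.54% and 0.34% in WT. mt-Nd5 (chromosome M, 11742 to 13565), another complex I subunit, made up 0.92% and 0.79% in KO and 0.67% and 0.48% in WT. Over each library as a whole, these 3 genes therefore took slightly larger parts of the mitochondrial UMIs in the chosen barcodes. There mt-Atp6 took a smaller part, 22.2% against 24.3% in KO and 20.02% against 22.0% in WT. Within KO granular convoluted tubule-like barcodes, mt-Nd4l and mt-Nd5 instead took smaller parts in members, 1.01% against 1.14% and 0.858% against 0.890%. Both took larger parts in members of the KO ionocyte-like class and of KO clusters 1 and 6. The mix was much the same in all the main classes of mitochondria-rich barcodes. mt-Atp6 lay between 21.2 and 22.4% in the 4 KO classes and at 19.8 and 19.99% in the 2 WT classes. KO cluster 1 had the highest mt-Co1 part, 20.5%, against 17.5 to 17.6% in the other 3 KO classes. mt-Co3 was the largest in WT members at 24.8%, against 19.6% in KO members, and the low-mitochondrial barcodes of each library showed the same order.

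**Figure D1:**
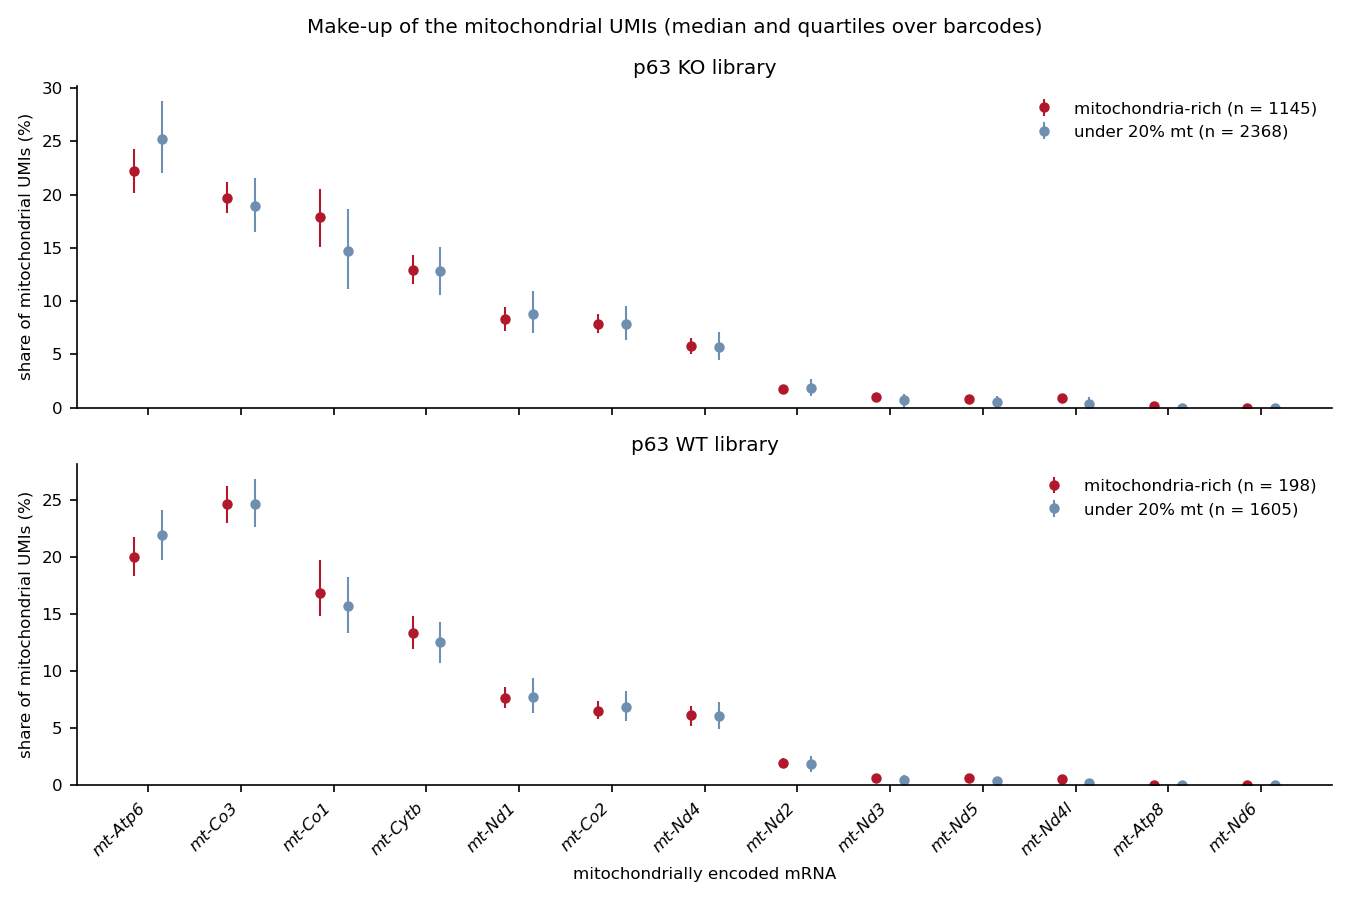
Share of each mitochondrially encoded mRNA among the mitochondrial UMIs of a barcode (vertical axis, %), in mitochondria-rich (red) and low-mitochondrial (blue) barcodes of the KO library (top) and the WT library (bottom); points are medians and bars are quartiles over barcodes. The 9 most abundant genes keep their order between both kinds of barcode within a library, and mt-Co3 exceeds mt-Atp6 in the WT library.

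To ask which cells these were, the barcodes of each library with at least 500 genes and at most 50% mitochondrial UMIs were clustered on nuclear genes alone, each library by itself. Clusters were named from marker genes, and a name ending in -like says that a cluster held at least 3 markers of that type, each 2-fold higher than in other barcodes. Since clustering used no mitochondrial gene, the mitochondrial share of a class was not built into it.

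Granular convoluted tubule-like and ionocyte-like barcodes together supplied most mitochondria-rich barcodes when both kinds of barcode were clustered together. In KO, 340 of the 1145 (29.7%, 27.1 to 32.4%) were granular convoluted tubule-like, against 14.3% (12.9 to 15.8%) of the low-mitochondrial barcodes. Ionocyte-like barcodes were 321 (28.0%, 25.5 to 30.7%), against 12.2% (10.9 to 13.6%). In WT, 71 of the 198 (35.9%, 29.2 to 43.0%) were granular convoluted tubule-like, against 7.29% (6.07 to 8.67%), and 66 (33.3%, 26.8 to 40.4%) were ionocyte-like, against 3.86% (2.97 to 4.92%). Both classes thus took larger shares of the mitochondria-rich barcodes in each library, beyond counting error. With the members clustered alone, 181 of the 1145 KO members were granular convoluted tubule-like (15.8%) and 278 ionocyte-like (24.3%), and 57 of the 198 WT members (28.8%) and 30 (15.2%), so the 2 classes no longer made up most of either. The classes rest on genes that themselves differ between the libraries, so their sizes are not compared between KO and WT.

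Of the other KO members, 196 (17.1%) fell in cluster 6 and 181 (15.8%) in cluster 1, 2 clusters without a name that are described further on. Classes of other kinds were rare among mitochondria-rich barcodes. In KO, acinar-like barcodes gave 3 members against 160 low-mitochondrial barcodes, basal duct-like 5 against 159, intercalated duct-like 13 against 259, endothelial-like 24 against 308 and macrophage-like 11 against 255. In WT, acinar-like barcodes gave 9 against 395, basal duct-like 5 against 379, intercalated duct-like 3 against 227 and macrophage-like 7 against 87. The KO members left over were 26 striated or excretory duct-like, 8 red cell-like, 7 fibroblast-like, 6 adipocyte-like, 2 T or NK cell-like and 1 myoepithelial-like barcode, and 1 in the small unnamed cluster 18. The WT members left over were 18 in cluster 10, an unnamed cluster led by Egr2, Igfbp5 and Pak4, 9 red cell-like, 6 striated or excretory duct-like, 2 T or NK cell-like and 2 myoepithelial-like barcodes. The WT red cell-like cluster also had 10 raised endothelial markers and Flt1, Plvap, Igfbp7 and Fabp4 among its top 10 genes, and no other WT cluster was named endothelial. WT held 62 cycling-like barcodes, and 0 of them were mitochondria-rich, which allows a share of up to 4.84% on the 3-count limit. The acinar, basal and intercalated cells that filled much of the low-mitochondrial barcodes thus gave few mitochondria-rich ones in this clustering. With the members clustered alone, the split was different. Of KO members 154 then fell in a cluster named acinar-like, raised in Prol1, Pip, Mucl2, Mup5 and secretoglobins, and 90 in one named intercalated duct-like. Of WT members 19 were then named acinar-like and 35 basal duct-like. These names rest on differences among the members alone.

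**Figure D2:**
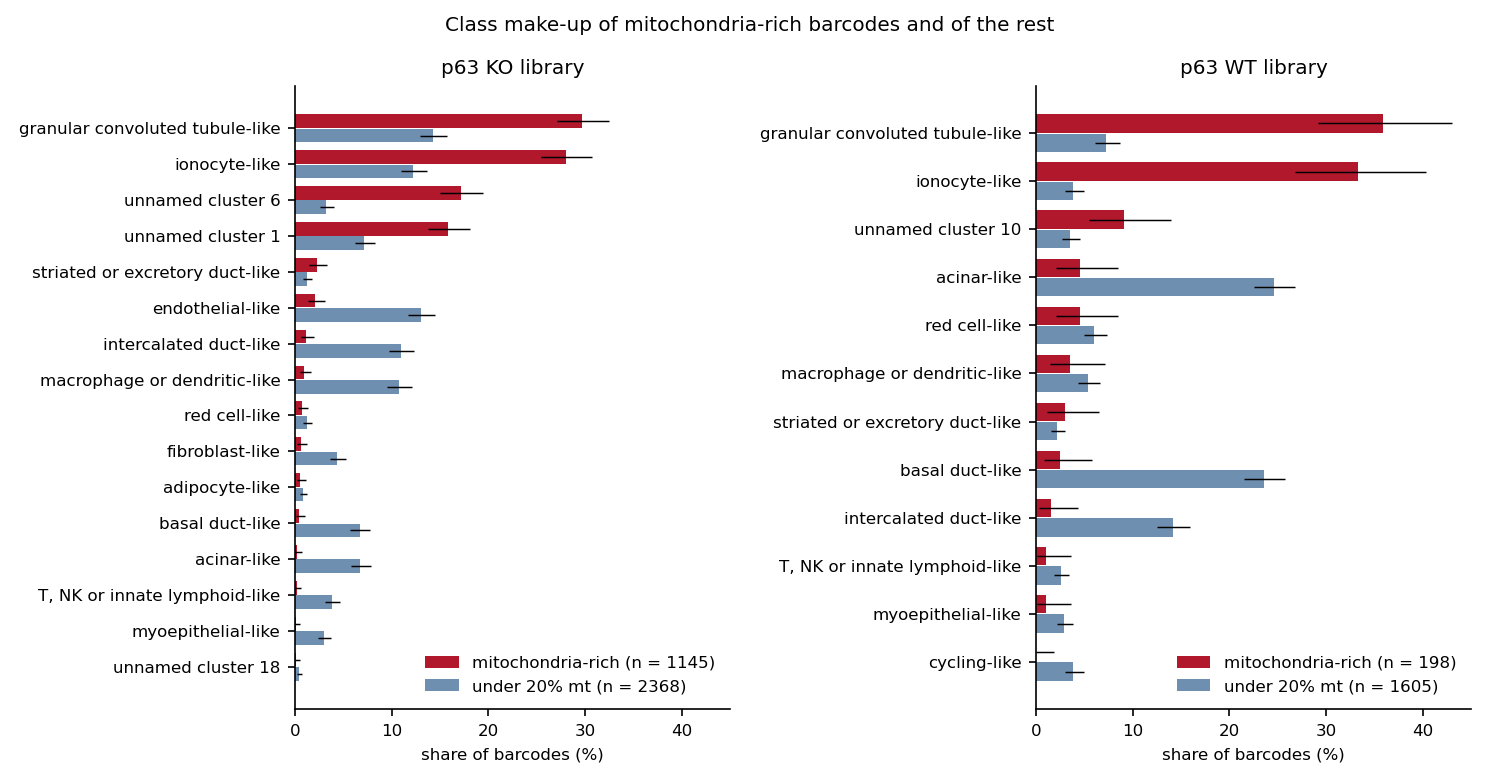
Share of each class (horizontal axis, % of barcodes) among mitochondria-rich (red) and low-mitochondrial (blue) barcodes of the KO library (left) and the WT library (right), with exact 95% binomial intervals. In KO, 29.7% of the mitochondria-rich barcodes were granular convoluted tubule-like and 28.0% ionocyte-like; in WT, 35.9% and 33.3%.

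Read the other way, the limit of 20% cut through these classes rather than beside them. In KO, 50.1% (46.3 to 54.0%) of granular convoluted tubule-like barcodes and 52.5% (48.5 to 56.6%) of ionocyte-like barcodes were mitochondria-rich. In WT the shares were 37.8% (30.8 to 45.1%) and 51.6% (42.6 to 60.5%). By contrast, 1.84% of acinar-like and 3.05% of basal duct-like barcodes were mitochondria-rich in KO, against 2.23% and 1.30% in WT. By the classes of this joint clustering, a filter at 20% would thus remove about as many ionocyte-like barcodes as it keeps, and next to none of the acinar-like ones. With the members clustered alone, 154 KO and 19 WT members were named acinar-like, so this reading depends on the clustering.

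The median mitochondrial share was highest in the same 2 named classes in both libraries. It was 20.9% in KO ionocyte-like and 20.4% in WT ionocyte-like barcodes, and 20.03% in KO and 17.8% in WT granular convoluted tubule-like barcodes. Striated or excretory duct-like barcodes, which carried the epithelial sodium channel genes Scnn1a, Scnn1b and Scnn1g, followed at 18.9% in KO and 12.5% in WT. They were few, with 26 of 55 mitochondria-rich in KO (47.3%, 33.7 to 61.2%) and 6 of 41 in WT (14.6%, 5.57 to 29.2%). KO adipocyte-like barcodes stood at 15.6%, with 6 of 25 mitochondria-rich. Acinar-, basal duct-, myoepithelial-, macrophage- and T cell-like medians lay between 3.90 and 5.09% over both libraries.

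**Figure D3:**
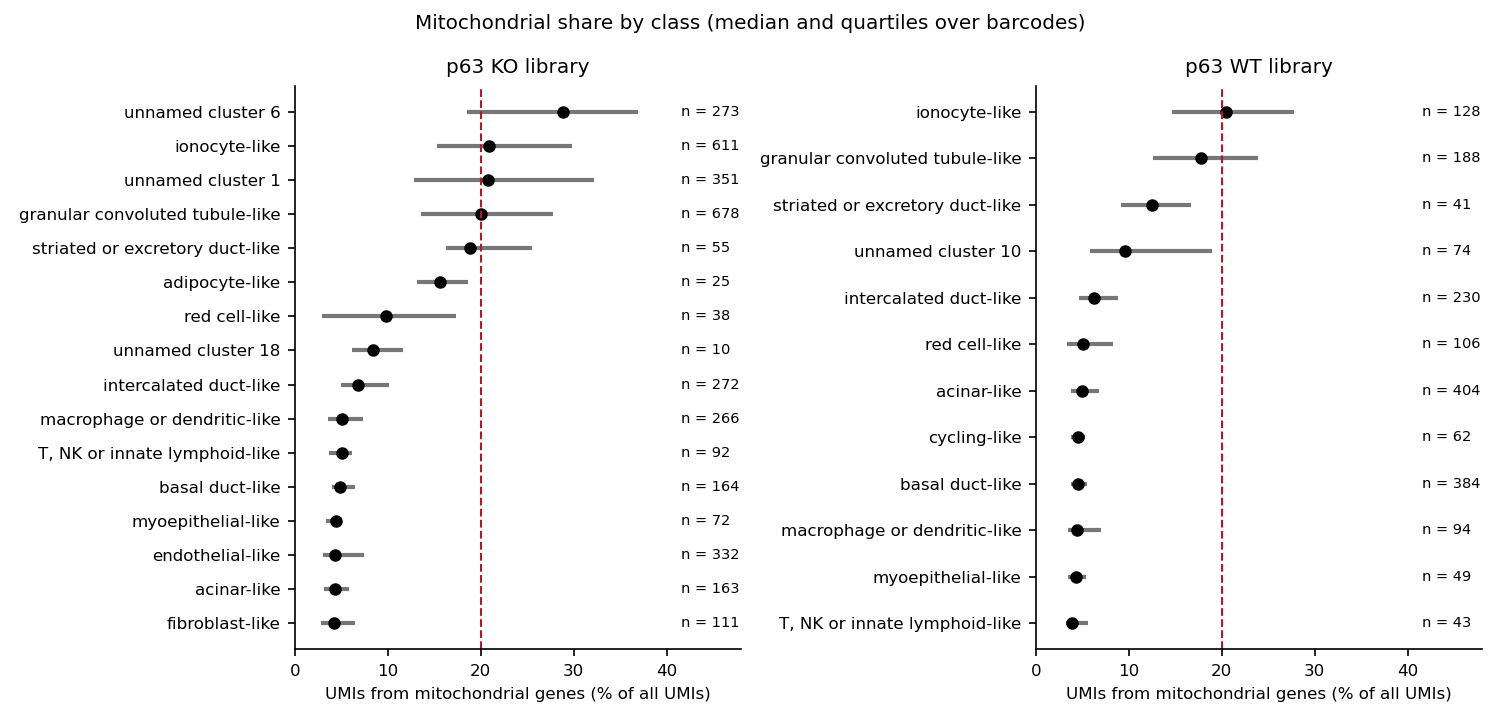
Mitochondrial share of the barcodes of each class (horizontal axis, % of all UMIs) in the KO library (left) and the WT library (right); points are medians, bars are quartiles over the n barcodes shown, and the dashed line is the 20% limit. Only KO cluster 6, both ionocyte-like classes, KO cluster 1 and KO granular convoluted tubule-like barcodes have medians at or above 20%.

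Within the granular convoluted tubule-like and ionocyte-like classes, mitochondria-rich barcodes differed from low-mitochondrial ones in both parts of the ratio. KO granular convoluted tubule-like members held medians of 692 mitochondrial and 1664 other UMIs, against 392 and 2343.5. KO ionocyte-like members held 711 and 1636, against 338.5 and 1997.5. In WT the medians were 683 and 1749 against 366 and 2230 in the granular convoluted tubule-like class, and 768.5 and 1867 against 417 and 2352 in the ionocyte-like class. In KO cluster 6 the other UMIs were nearly level, at 1360.5 against 1368, while the mitochondrial ones stood at 703.5 against 107. Levels of all other genes in CPM leave the mitochondrial part out of the total.

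On that scale the markers of the tubule class stood at levels that differed from gene to gene in the mitochondria-rich tubule-like barcodes. These markers named the tubule-like clusters, so their presence in that class was built in, and their levels are a description. Klk1, the main tissue kallikrein of these ducts, stood at 113222 CPM in KO granular convoluted tubule-like members and 124486 in their low-mitochondrial counterparts, and at 184969 and 180085 in WT. All 18 markers of this type were detected in KO members and 17 of 18 in WT members, where Ren1 was at 0. Since they named the class, their detection is no separate evidence of what these members were. Egf stood at 931 against 987 CPM in KO and at 1861 against 2794 in WT. Klk1b26, a kallikrein of the same cluster of genes, stood at 12300 against 19523 in KO and at 33959 against 63691 in WT. Klk1 thus kept its level in the chosen barcodes, while Klk1b26 was lower in them in each library, short of the size rule given below. The kallikrein genes are close copies, and the sources used here do not say how reads that match several of them were assigned.

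Foxi1 and Hepacam2 were among the markers that named the ionocyte-like clusters, so their presence in that class was built in. Their levels on the 2 sides of the limit are a description. Foxi1 stood at 537 CPM in KO members and 484 in low-mitochondrial barcodes, and at 216 and 185 in WT. Hepacam2, a further ionocyte marker, stood at 450 against 362 in KO and at 468 against 444 in WT. Slc12a2, the sodium-potassium-chloride cotransporter gene, which is in the acinar marker set here, stood at 2095 against 1715 in KO and at 1899 against 1536 in WT. Granular convoluted tubule-like members held Foxi1 at 10.03 CPM in KO and at 0 in WT. After each barcode was thinned at random to 500 non-mitochondrial UMIs, 67 of 321 KO ionocyte-like members (20.9%) still held a Foxi1 UMI, against 58 of 290 low-mitochondrial ones. Of KO granular convoluted tubule-like members 0.59% did. In WT ionocyte-like barcodes it was 7.58% of members against 8.06%. The share of barcodes with a Foxi1 UMI was thus alike on both sides of the 20% limit.

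Markers of the other cell types were low in these members but not absent. In granular convoluted tubule-like members the 12 endothelial markers summed to 60.2 CPM in KO and 143 in WT, and the 14 macrophage or dendritic markers to 45.1 and 368. The acinar markers summed to 3718 CPM in KO and 15167 in WT, with the water channel gene Aqp5 at 0 in both. Klk1 itself was found in low-mitochondrial macrophage-like barcodes at 7305 CPM in KO and 9499 in WT, and Mucl2, an acinar mucin-like gene, at 3064 and 10077. Those levels show how much of each transcript reached barcodes of a type that should lack it. The Klk1 level of 36646 CPM in KO ionocyte-like members was above that of low-mitochondrial macrophage-like barcodes and below the 45481 of the 11 mitochondria-rich ones. In WT ionocyte-like members it was 95990, against 11824 in the 7 mitochondria-rich macrophage-like barcodes.

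Few of the genes tested passed a 2-fold size rule between the mitochondria-rich and the low-mitochondrial barcodes of a class. Smaller differences are not counted by that rule. A gene was counted as higher or lower when both sides together had at least 50 UMIs and the exact interval of the ratio lay wholly beyond 2-fold, the size rule used throughout. In KO ionocyte-like barcodes 0 of 3441 genes were higher (0%) and 0 lower (0%). In KO granular convoluted tubule-like barcodes 2 of 3384 were higher (0.0591%) and 0 lower (0%). Those 2 genes were Hba-a1, a haemoglobin chain, with 217 UMIs in members against 115, and the interferon-induced Ifit1, with 62 against 21. Both were named after their values were seen, and neither passed without the 1 barcode that held most of its UMIs. Without that barcode the ratio was 1.501 (1.16 to 1.95) for Hba-a1 and 3.17 (1.86 to 5.56) for Ifit1. Hba-a1 stood apart in 1 of the 2 KO clusters of this class only, with 166 UMIs in members against 33 in cluster 4 and 51 against 82 in cluster 0.

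In WT granular convoluted tubule-like barcodes 3 of 910 genes were higher (0.33%) and 1 lower (0.11%) in members. The higher ones were the haemoglobin genes Hba-a1, with 434 UMIs in members against 252, Hba-a2, with 368 against 222, and Hbb-bs, with 847 against 616. The lower one was Cryab, a small heat shock protein, with 3 UMIs against 47. All 4 were named after their values were seen. Without the 1 richest barcode of each haemoglobin gene the ratios were 2.36, 2.32 and 2.15, and none of the 3 passed. Haemoglobin took 1.31% of the non-mitochondrial UMIs of these members against 0.416% of their low-mitochondrial counterparts in WT, and 0.13% against 0.0615% in KO.

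In WT ionocyte-like barcodes 2 of 823 genes were higher (0.243%) and 6 lower (0.729%) in members, and 1 barcode decided most of these counts. The 4 haemoglobin genes were lower, but 1 low-mitochondrial barcode held 523 of the 571 UMIs of Hba-a1 and 1026 of the 1182 of Hbb-bs. Without it the members' ratios were 2.73 for Hba-a1, 2.26 for Hba-a2, 1.92 for Hbb-bs and 1.203 for Hbb-bt, so the direction turned. All 632 UMIs of the antibody joining chain gene Jchain and, on the members' side, all 57 of the imprinted RNA Meg3 sat in single barcodes. Of the 8 genes, only the unnamed RNA Gm26917 still passed without its richest barcode, with 83 UMIs in members against 8. The remaining gene, Ly6d, a small surface protein gene, had 9 UMIs against 44. These genes were named after their values were seen. Between the libraries, Hba-a1 in the granular convoluted tubule-like class was the only gene that passed in the same direction in both, out of 906 genes tested in both, and for ionocyte-like barcodes it was 0 of 820.

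Nuclear genes of the respiratory chain followed the mitochondrial share unevenly. The lists held 37 genes of complex I, 25 of complexes II to IV with cytochrome c, and 15 of ATP synthase. None of them that could be tested passed the size rule between members and low-mitochondrial barcodes in any class compared. In WT granular convoluted tubule-like members their median log2 ratios were 0.33, 0.37 and 0.24, against 0.08 over all genes, and the sums were 1.28-, 1.28- and 1.18-fold those of the low-mitochondrial barcodes. In KO granular convoluted tubule-like members the medians were 0.00, 0.06 and 0.04, against 0.06 over all genes. KO ionocyte-like members had medians of 0.08, 0.10 and 0.10, against 0.05, and WT ionocyte-like members 0.19, 0.17 and 0.00, against 0.01. The medians thus lay above that of all genes in the WT tubule class and close to it in the KO tubule and ionocyte-like classes, with 0 genes past the size rule.

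Cut into steps of 10 percentage points, the summed level of these 3 lists gave the same picture. In WT granular convoluted tubule-like barcodes it was 3.96% of non-mitochondrial UMIs at 0 to 10% mitochondrial share, 4.93% at 10 to 20%, 5.36% at 20 to 30%, 6.86% at 30 to 40% and 7.40% at 40 to 50%. The last 2 steps rest on 18 and 8 barcodes. In KO ionocyte-like barcodes the 5 levels were 5.45%, 5.45%, 5.80%, 5.81% and 5.88%, and in KO granular convoluted tubule-like barcodes 4.73%, 4.04%, 4.25%, 4.45% and 4.82%. The WT class thus climbed at each step, the KO ionocyte-like class barely moved, and the KO granular convoluted tubule-like class was lowest at 10 to 20%. WT ionocyte-like barcodes had 5.29%, 5.93%, 6.19%, 6.14% and 7.18%, with 12, 15 and 11 barcodes in the first and the last 2 steps.

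The granular convoluted tubule markers ran the opposite way in their own class. Their sum was 22.6%, 19.2%, 17.0%, 14.9% and 15.3% of non-mitochondrial UMIs over the 5 steps in KO, and 40.3%, 29.99%, 28.9%, 23.2% and 21.7% in WT. These markers are among the genes that defined the class, and since they hold a large part of all UMIs, a lower sum by itself lifts the CPM of every other gene. Ribosomal protein genes took 10.2% in KO granular convoluted tubule-like members against 11.2%, and 14.4% against 16.7% in KO ionocyte-like members. In WT the shares were 7.69% against 7.65% and 10.2% against 13.5%. They were lower in members in 3 of these 4 classes and level in WT granular convoluted tubule-like barcodes.

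**Figure D4:**
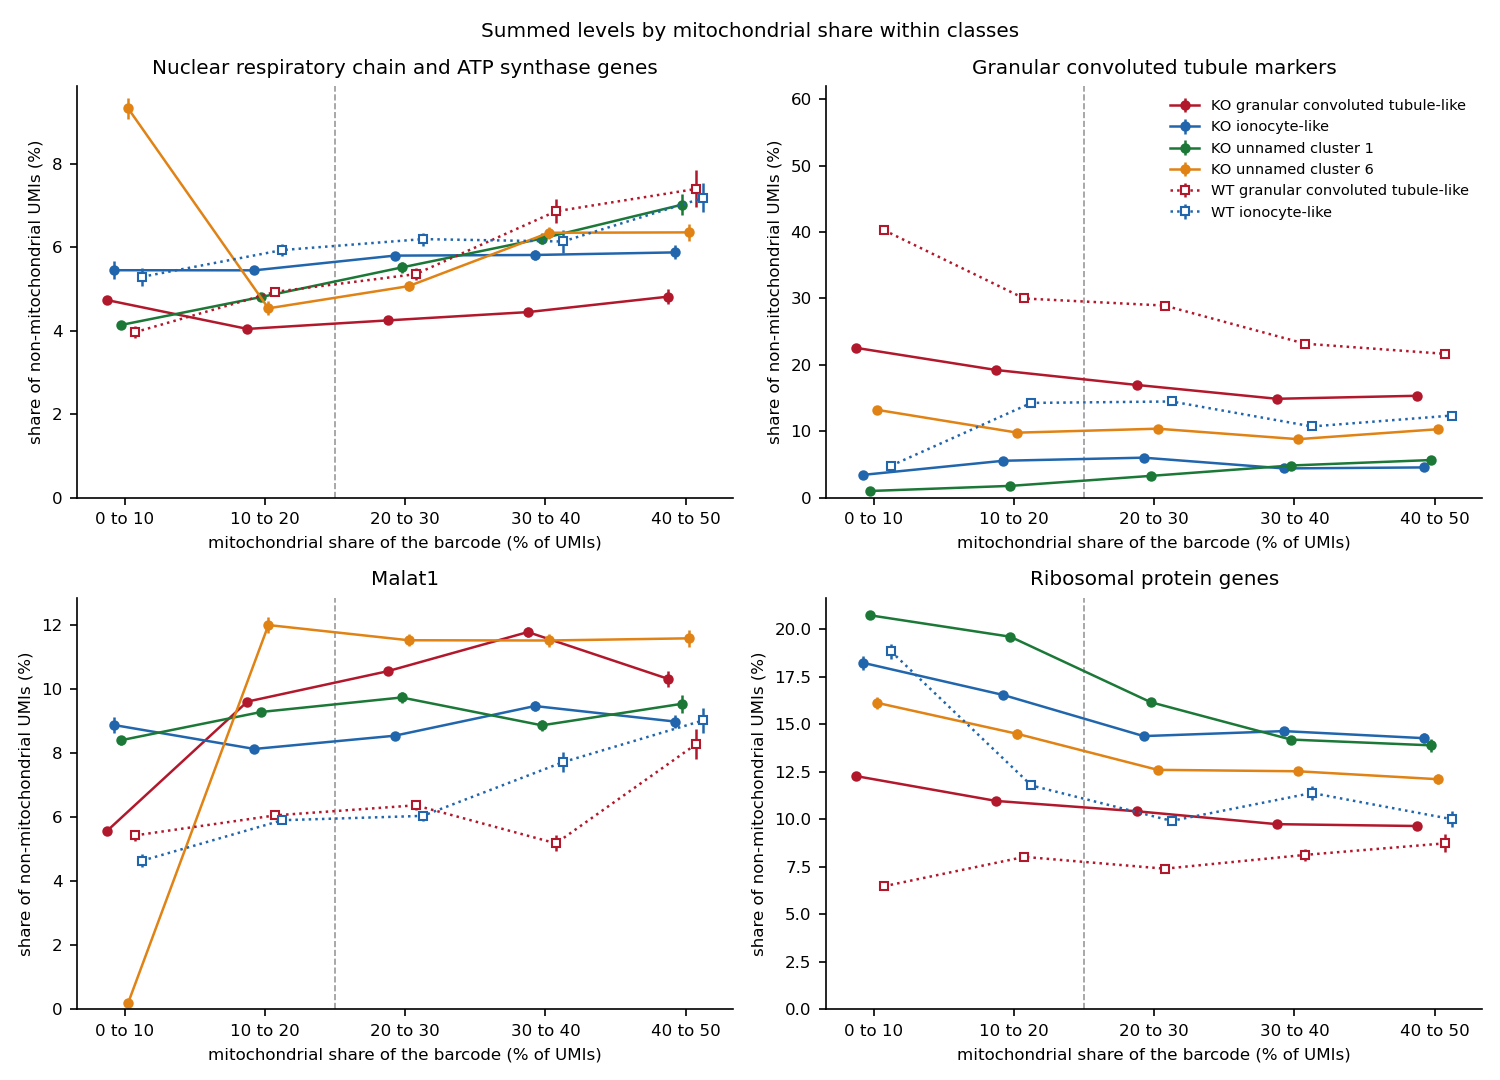
Summed level of 4 sets of nuclear genes (vertical axis, % of non-mitochondrial UMIs) by the mitochondrial share of the barcode (horizontal axis, % of UMIs, in 5 steps) in the 6 classes compared; bars are 95% intervals of counting error and the dashed line is the 20% limit. Granular convoluted tubule markers climb with the mitochondrial share in KO cluster 1, to 5.66%, and are lower at 40 to 50% than at 0 to 10% in the granular convoluted tubule-like classes; WT points at 30% and above rest on 8 to 18 barcodes and the WT ionocyte-like point at 0 to 10% on 12.

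KO cluster 1, led by Sprr1a, Rnase1, Fabp5, Ndrg1, Ly6d, Slc2a1 and Ppargc1a, showed the clearest differences within a cluster. It held 351 barcodes, of which 181 (51.6%, 46.2 to 56.9%) were mitochondria-rich. It stayed unnamed because none of the 18 marker sets met the rule for a name. The leading set, that of the intercalated duct, had 2 raised markers, Esp18 and Sox9. The next, striated or excretory duct, had 1. Epcam, the epithelial adhesion gene, stood at 1024 CPM in its members, and Ptprc, the common leukocyte antigen, at 0. Of 1966 genes, 3 were higher (0.153%) and 3 lower (0.153%) in members.

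Klk1 (chromosome 7, 44225360 to 44229618) was 3.36-fold higher in these members (3.24 to 3.49), at 33760 CPM, against 10038. It was present in 181 of 181 members and in 169 of 170 low-mitochondrial barcodes. Bhlhe40, a transcriptional repressor, was 2.81-fold higher (2.29 to 3.47), with 289 UMIs against 139, and Spire1, an actin nucleation factor, 3.89-fold (2.16 to 7.36), with 46 against 16. The gland-secreted genes Wfdc18 and Esp18, both markers of the intercalated duct set, were 5.24-fold (4.54 to 6.07) and 4.67-fold (3.39 to 6.57) lower, with 217 UMIs in members against 1539, and 44 against 278. Id3, an inhibitor of basic helix-loop-helix factors, was 5.91-fold lower (3.38 to 11.2), with 14 UMIs against 112. Each of these 6 calls held without its richest barcode. The mitochondria-rich side of the cluster thus held more of the tubule gene Klk1 and the other side more of these intercalated duct genes. Klk1 was also higher on the mitochondria-rich side of KO classes that should lack it, at 26242 CPM against 9304 in endothelial-like and 45481 against 7305 in macrophage-like barcodes, and the part of stray Klk1 in cluster 1 was not tested. Its median depth was 1540 non-mitochondrial UMIs in members and 1965 in the rest of the cluster.

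Klk1 took 0.675%, 1.21%, 2.51%, 3.83% and 4.78% of non-mitochondrial UMIs over the 5 steps of mitochondrial share, which held 65, 105, 70, 78 and 33 barcodes. Granular convoluted tubule markers as a whole took 0.993%, 1.76%, 3.27%, 4.83% and 5.66%. The nuclear respiratory chain and ATP synthase genes took 4.14%, 4.81%, 5.52%, 6.21% and 7.02%, and ribosomal protein genes 20.7%, 19.6%, 16.2%, 14.2% and 13.9%. The summed level of the nuclear-encoded respiratory genes was thus higher at each step, although 0 of them passed the size rule. The 3 respiratory lists had median log2 ratios of 0.43, 0.44 and 0.44 in members, against -0.01 over all genes. The 13 genes of mitochondrial transcription and biogenesis summed to 1.81-fold (1.57 to 2.08) the level of the low-mitochondrial barcodes. Ppargc1a, the coactivator that drives mitochondrial biogenesis, led that list with 1267 CPM against 645. It is also among the genes that led the cluster, and it did not pass the size rule.

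KO cluster 6, led by Arg1, Gsta4, Kcnt1, Stxbp6, Fxyd2 and Atp6v1c2, was the most mitochondria-rich cluster. Of its 273 barcodes, 196 (71.8%, 66.1 to 77.1%) were members, and its median share was 28.9%. Granular convoluted tubule genes were its most abundant markers, summing to 97462 CPM in members, with Klk1 at 73639 against 75655. Foxi1 stood at 7.25 CPM. When each barcode was instead given to the cluster of low-mitochondrial barcodes whose profile made it most likely, 93 of the 196 members fell to the granular convoluted tubule-like clusters, 73 to the ionocyte-like and 16 to cluster 6 itself. The 2 ways of assigning these members thus disagreed, and the cluster is given no cell type.

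Of 1027 genes, 4 were higher (0.389%) and 1 lower (0.0974%) in cluster 6 members. The insulin receptor substrate Irs2 was 5.83-fold higher (2.15 to 22.1), with 55 UMIs in members against 4. The chaperone Hsph1 had 67 against 6, the retroelement silencing factor Resf1 128 against 15 and Gm26917, named after its values were seen, 158 against 15. The translation initiation factor Eif3e was 4.17-fold lower (2.62 to 6.76), with 30 against 53. Irs2 and Hsph1 did not pass without their richest barcodes. These calls moved with Malat1, a long RNA that stays in the nucleus. Malat1 took 0.192% of non-mitochondrial UMIs in the 41 barcodes at 0 to 10% mitochondrial share and 12.0%, 11.5%, 11.5% and 11.6% in the 4 steps above. After thinning, 22 of the 77 low-mitochondrial barcodes of the cluster held no Malat1 UMI, against 0 of the 196 members. Without those 22, in an alternative chosen after seeing the data, 0 genes passed. The median log2 ratios of the 3 respiratory lists were then 0.04, 0.11 and 0.06, against -0.31, -0.13 and -0.24 with them.

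Low Malat1 lay on the low-mitochondrial side in the libraries as a whole. Of 1145 KO and 198 WT members, 0 lacked a Malat1 UMI, which allows shares of up to 0.262% and 1.52%. Of the low-mitochondrial barcodes, 39 of 2368 lacked it in KO and 1 of 1605 in WT. In the KO granular convoluted tubule-like class 34 of 338 low-mitochondrial barcodes held none after thinning, and leaving them out kept both calls of that class. All the mitochondria-rich barcodes thus held Malat1, whereas 38 of the KO barcodes below 10% mitochondrial share did not.

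Between the genotypes, larger shares of genes passed the size rule than between the 2 sides of the 20% limit. KO members (clusters 0 and 4) against WT members (cluster 2) had 52 of 1866 genes higher (2.79%) and 33 lower (1.77%). In ionocyte-like members (KO clusters 3 and 5, WT cluster 6) 25 of 2155 genes were higher (1.16%) and 28 lower (1.3%). Without the richest barcode of each gene, 45 of the 52 and 26 of the 33 calls remained in the first class, and 20 of the 25 and 22 of the 28 in the second. The low-mitochondrial barcodes of the same classes also differed between KO and WT. There 60 of 2592 genes were higher and 33 lower in the tubule class, and 22 of 2335 higher and 32 lower in the ionocyte-like class. These differences compare 2 libraries. For single genes and lists, the low-mitochondrial values are given beside them in some cases only.

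Lcn2, a secreted protein that binds iron carriers of bacteria, showed the largest difference that was higher in KO members of the tubule class. It had 355 UMIs in KO and 2 in WT, or 593 against 15.01 CPM, and in the low-mitochondrial barcodes 565 and 0. Ionocyte-like members had 112 UMIs in KO and 0 in WT, at least 9.73-fold higher against a limit of 3 counts for the WT members together, and low-mitochondrial macrophage-like barcodes had 82 and 0. Lcn2 was thus present across KO barcodes of several kinds and nearly missing from WT. The haem oxygenase gene Hmox1 had 115 UMIs in KO members against 2 in WT members of the tubule class. The cytokine signalling suppressor Socs3 had 103 against 2 and the kinase gene Map3k8 430 against 12, both in the tubule class. In low-mitochondrial macrophage-like barcodes Socs3 stood at 1858 CPM in KO against 444 in WT, and Map3k8 at 276 against 89.6. Enc1, Fbrsl1, Anxa3, Cpeb2, Zfp280d and the phosphatase gene Dusp5 were also among the 10 highest, each with 1 or 2 UMIs in WT members.

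Immediate early genes were the listed group with most members higher in KO tubule-like barcodes. Of the 24 immediate early and heat shock genes, 6 passed the size rule as higher and 0 as lower. Over all 1866 genes tested, 52 were higher (2.79%) and 33 lower (1.77%). The list's median log2 ratio was 0.69 against 0.10 over all genes. The 6 were Fosb, Junb, Egr1, Atf3, Ier3 and Zfp36. Fosb, an AP-1 factor, stood at 2195 CPM in KO members against 788 in WT members, and Zfp36, an mRNA decay factor, at 1459 against 300.2. In the low-mitochondrial barcodes of the class the log2 ratios were 1.02 for Fosb and 1.57 for Zfp36, beside 1.47 and 2.24 in members. There 2 of the 24 passed as higher, beside 60 of 2592 over all genes tested, and the median was 0.26 against 0.12. In low-mitochondrial macrophage-like barcodes Fosb stood at 406 CPM in KO against 273 in WT, and Junb at 3155 against 1618, while Egr1 stood at 293 against 452. In ionocyte-like members 0 of the 24 passed, beside 25 of 2155 genes higher (1.16%) and 28 lower (1.3%). The median was -0.08 against 0.13. The difference between the 2 classes was not tested.

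The metallothioneins, which bind zinc and copper, were higher in KO members of both classes. Mt1 stood at 11113 CPM in KO tubule-like members against 2994 in WT, and at 8017 against 3155 in ionocyte-like members. Mt2 stood at 4432 against 1193 and at 2579 against 1082. In low-mitochondrial macrophage-like barcodes Mt1 stood at 3756 in KO and 1536 in WT, Mt2 at 1173 and 192, and Hmox1 at 1620 and 534. In T or NK cell-like ones Mt1 stood at 1030 and 689 and Mt2 at 426 and 304, while Hmox1 had 0 UMIs against 11. Mt1, Mt2 and Hmox1 made 3 of the 16 antioxidant and detoxification genes tested higher in the tubule class, beside 52 of 1866 (2.79%) over all genes. The list's median of 0.09 lay level with all genes at 0.10. The higher sum of that list, 2.34-fold (2.20 to 2.497), was thus carried by a few abundant genes. In the low-mitochondrial barcodes of the tubule class 2 of the 17 genes tested were higher, Mt1 and Mt2 without Hmox1, beside 60 of 2592 over all genes. The sum there was 2.97-fold (2.84 to 3.12).

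S100a6, a calcium-binding protein gene, was among the most different genes of ionocyte-like members. It had 1508 UMIs in KO members against 47 in WT members, or 2745 against 328 CPM, and 4126 against 518 in the low-mitochondrial barcodes. In tubule-like members it stood at 65.2 against 37.5, on 39 and 5 UMIs, too few for the size rule. In low-mitochondrial macrophage-like barcodes it was lower in KO, at 159 against 269. Of the KO clusters joined in the ionocyte-like class, S100a6 was among the top 10 genes of cluster 5 and not of cluster 3. The other 8 of the 10 highest in ionocyte-like members after Lcn2 and S100a6 were Snhg9, Pofut2, Ptk7, Zfp787, Chd2, Fabp5, Gna13 and Rpia, with at most 4 UMIs in WT members. The fatty acid carrier gene Fabp5 had a log2 ratio of 2.36 in members and -0.42 in the low-mitochondrial barcodes of the class.

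Secretory genes of other gland cells were lower in KO members of both classes. Smgc, a secretory product of acinar cells, had 23 UMIs in KO tubule-like members and 92 in WT, or 38.4 against 690 CPM, and 41.9 against 670 in ionocyte-like members. Mucl2 stood at 1543 against 8788 and at 1416 against 12362. Scgb1b27, a secretoglobin, stood at 309 against 1899 and at 248 against 2743. Of the lower genes, 4 of 33 in the tubule class and 7 of 28 in the ionocyte-like class were acinar markers. The same genes were lower in KO in macrophage-like barcodes, which should not express them. There Smgc stood at 62.5 CPM in KO and 8957 in WT, Mucl2 at 3064 and 10077, and Scgb1b27 at 788 and 2441. Haemoglobin also moved with the library, at 0.13% of non-mitochondrial UMIs in KO tubule-like members against 1.31% in WT. The part of such stray transcripts in the calls was not tested.

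Kallikreins were lower in KO ionocyte-like members, a class they did not define. Klk1 stood at 36646 CPM in KO against 95990 in WT, Klk1b26 at 3418 against 15272 and Egf, the epidermal growth factor gene, at 231 against 761. In all, 8 of the 28 lower genes were markers of the tubule. In low-mitochondrial macrophage-like barcodes Klk1 stood at 7305 in KO and 9499 in WT, Klk1b26 at 1151 and 1581, and Egf at 38.4 and 20.4. Klk1b22 and Klk1b16, 2 further tubule markers lower in KO ionocyte-like members, stood at 72.1 against 261 and at 48.1 against 106 in these macrophage-like barcodes. The low-mitochondrial macrophage-like class thus moved the same way for 4 of these 5 genes. In the few mitochondria-rich macrophage-like barcodes, whose levels are given above, Klk1 was instead higher in KO than in WT. Whether ionocyte-like members moved further than such background was not tested. In tubule-like members 7 of the 33 lower genes were markers of their own class. Such genes helped to define the class in each library and are not read further. G0s2, an inhibitor of fat breakdown, was lower in both classes, with 112 UMIs against 146 and 20 against 106, and the lipid carrier gene Apoe with 42 against 45 and 28 against 57. In low-mitochondrial macrophage-like barcodes G0s2 was lower in KO too, with 4 UMIs against 28, while Apoe, which macrophages make, stood at 23192 CPM against 16882. In low-mitochondrial T or NK cell-like barcodes both genes were lower in KO, G0s2 with 0 UMIs against 10 and Apoe at 318 CPM against 1154. Meg3 was lower in the ionocyte-like class through the same single WT barcode.

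Nuclear genes of the respiratory chain lay lower in KO tubule-like members, at nearly the same mitochondrial share. Complex I genes had a median log2 ratio of -0.53, complexes II to IV of -0.36 and ATP synthase of -0.23, against 0.10 over all genes. The summed levels were 0.70-, 0.74- and 0.78-fold those of WT. Of the 77 genes, 4 passed as lower and 0 as higher, beside 33 of 1866 lower (1.77%) and 52 higher (2.79%) over all genes tested. The 4 were the complex I subunit gene Ndufc1, the cytochrome c gene Cycs and the ATP synthase subunit genes Atp5g1 and Atp5j. Cycs had 106 UMIs in KO against 79 in WT, or 177 against 593 CPM. Ndufc1 and Atp5g1 did not pass without their richest barcodes. All 4 were also lower in KO in low-mitochondrial macrophage-like barcodes, where Ndufc1 stood at 67.3 CPM against 179 in WT, Cycs at 151 against 281, Atp5g1 at 151 against 399 and Atp5j at 276 against 664. The difference thus moved with the library in a class of another kind as well. In the low-mitochondrial barcodes of the class the 3 medians were -0.23, -0.15 and -0.06, against 0.12 over all genes, and in ionocyte-like members -0.15, -0.10 and -0.13, with 0 genes past the rule. Mitochondrial ribosome genes had medians of -0.50 in tubule-like and -0.42 in ionocyte-like members, with 0 of 14 tested genes past the rule in each. Cytosolic ribosomal protein genes ran the other way, at 10.2% in KO members against 7.69% in WT in the tubule class and 14.4% against 10.2% in the ionocyte-like class.

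**Figure D5:**
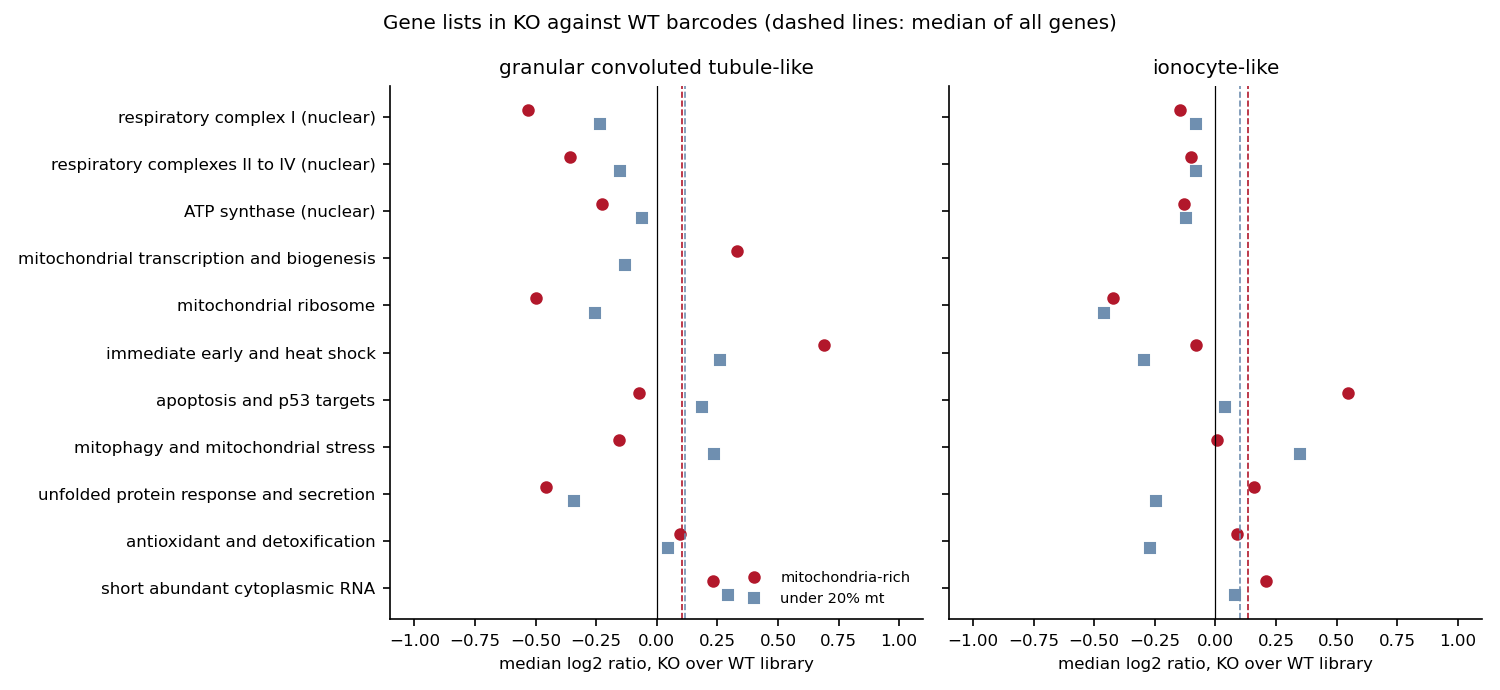
Median log2 ratio of each gene list, KO over WT (horizontal axis), in mitochondria-rich (red circles) and low-mitochondrial (blue squares) granular convoluted tubule-like (left) and ionocyte-like (right) barcodes, for lists with at least 10 genes of 10 or more UMIs; dashed lines mark the median over all genes. Complex I genes lie at -0.53 and immediate early genes at 0.69 in mitochondria-rich tubule-like barcodes.

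The few KO members of the endothelial-, macrophage- and basal duct-like classes carried the tubule transcript Klk1. The 24 KO endothelial-like members held Klk1 at 26242 CPM, against 9304 in the low-mitochondrial barcodes of that class. The 11 macrophage-like members held it at 45481, against 7305, and the 5 basal duct-like members at 9469, against 2625. In each of these classes the mitochondria-rich barcodes therefore held more of the tubule transcript than the others did. Mixed droplets and free RNA were not separated from expression.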

How the data were processed

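Raw UMI counts per gene and barcode, as deposited by the authors, were used. The tables hold 27998 Ensembl IDs; GENCODE M21 (GRCm38) gave 27645 of them a symbol and 353 stayed without one. The submitters' processing notes list the tools Seurat 3.1.2, bcl2fastq 2.19.1 and Cell Ranger 2.1.0 and the build mm10, with no roles. How barcodes were selected for deposit is not stated there. The KO library held 11828669 UMIs and the WT library 8811082.

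Members were chosen by their mitochondrial share (13 mt- mRNAs) and gene number. The members, the 18 marker sets and the 12 gene lists were chosen with earlier results of these data known. Each library was clustered on nuclear genes in Python 3.11.15 (leidenalg 0.10.2, scanpy 1.11.5), with counts scaled to 10000, 2000 variable genes, 30 components, 15 neighbours, resolution 1. A cluster took a name from at least 3 markers that were 2-fold higher with 10 UMIs or more, 1 of them among its top 50 genes. Clusters of fewer than 15 barcodes, clusters whose top 10 genes held more markers of a rival set, and shallow clusters without markers stayed unnamed.

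Counts were summed over barcodes and divided by the summed non-mitochondrial UMIs, as CPM on a scale of 1000000. Ratios have exact conditional Poisson intervals (scipy 1.17.1), and log2 ratios were computed after adding 10 CPM. List medians and medians over all genes cover genes with at least 10 UMIs. Classes with at least 30 barcodes on each side were compared. No p-value was computed, since each genotype had 1 library. The counting and calling steps were tested on simulated data. Named genes were the mitochondrial mRNAs, class markers, for members against the rest the 5 highest and 5 lowest ratios past the size rule, in both libraries where both have the class, for KO against WT the 10 highest and 10 lowest, and of each list the 3 most abundant genes and those past the rule. The ranked picks skipped sex-linked, immunoglobulin, haemoglobin, ribosomal protein and mitochondrial genes, and gene models without a name. Alternatives changed the limits on mitochondrial share and genes, the cluster resolution and assignment, the scaling (TMM of edgeR 4.0.16 under R 4.3.3), the depth (thinning to 500 UMIs) and the UMI minimum.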

Additional observations from a re-analysis of the deposited data

How the results depend on the processing

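The share of mitochondria-rich barcodes was higher in KO under every limit tried. From 25% mitochondrial share it was 17.5% in KO and 6.60% in WT, and with at least 750 genes 14.9% and 8.63%. In KO it was 26.2% with an upper limit of 80%, 27.1% with at least 200 genes and 31.8% above the fewest UMIs of a WT barcode. The last limit was chosen after seeing the data, as were the omission of shared barcodes, of a gene's richest barcode and of barcodes without Malat1, and the values within clusters. The split into classes depended on the clustering, and with members clustered alone the tubule- and ionocyte-like classes no longer held most members. The granular convoluted tubule-like part of KO members was 46.4% at Leiden resolution 0.5, 35.8% at resolution 2, 15.8% with members clustered alone, 38.7% by likelihood and 26.5% from 25% mitochondrial share. The ionocyte-like part of KO members was 24.3% with members alone and 38.6% by likelihood. The unnamed part was 16.2% at resolution 0.5, 26.0% at resolution 2, 14.7% by likelihood, 38.8% from 25% and 29.2% above the WT minimum. In WT the granular convoluted tubule-like part was 43.9% at resolution 0.5 and 28.8% with members alone. The WT ionocyte-like part was 15.2% with members alone and 42.4% by likelihood, and the unnamed part 0% at both resolutions, 28.8% with members alone and 2.53% by likelihood. Of KO granular convoluted tubule-like barcodes, 56.7% were mitochondria-rich at resolution 0.5 and by likelihood, 34.9% with members alone, 39.3% from 25% and 46.1% above the WT minimum. Of KO ionocyte-like barcodes, 60.4% were so by likelihood and 44.2% from 25%. In WT the shares were 27.3% of granular convoluted tubule-like barcodes from 25% and 32.6% of ionocyte-like barcodes with members alone. The causes were not tested.

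Counts of genes past the size rule were small between members and low-mitochondrial barcodes and moved with the settings. In the KO granular convoluted tubule-like class the 2 calls became 1 with TMM, 1 after thinning (0 of the original 2), 5 without a UMI minimum, 0 without each gene's richest barcode, 1 within cluster 0 and 4 within cluster 4. In KO ionocyte-like barcodes the 0 calls became 3 without a UMI minimum, 1 within cluster 3 and 4 within cluster 5. KO cluster 1 had 2 calls after thinning and 18 without a minimum, in place of 6. KO cluster 6 had 3 after thinning (1 of them shared), 11 at a minimum of 20 UMIs, 17 without one, 3 without each gene's richest barcode and 0 without the barcodes that lacked Malat1, in place of 5. The WT granular convoluted tubule-like class had 8 with TMM, 9 without a minimum and 0 without the richest barcode, in place of 4. WT ionocyte-like barcodes had 4 after thinning, 13 without a minimum and 1 without the richest barcode, in place of 8. There, without its richest barcode, the log2 ratio turned to 1.42 for Hba-a1, 1.15 for Hba-a2, 0.94 for Hbb-bs and 0.25 for Hbb-bt. For Meg3 it became 0, also between KO and WT ionocyte-like members. Between KO and WT members, thinning left 28 calls in the granular convoluted tubule-like class, in place of 85, and 15 in the ionocyte-like class, in place of 53, where no minimum gave 128. TMM gave 68 higher and 26 lower genes in the granular convoluted tubule-like class and 30 and 25 in the ionocyte-like class. It set the median over all genes to 0.18 and 0.17 in log2, against 0.10 and 0.13, so list medians between genotypes are read against that median. Thinning left fewer UMIs per gene, which limits what can pass. No paired analysis was possible because each genotype had 1 library and the labels number no replicates.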
